A study of Mus musculus with 3 samples.

Results

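CD45 is encoded by Ptprc (ENSMUSG00000026395.16), on chromosome 1:138062861-138175708 of mm10, minus strand. The gene was taken by its symbol in the GENCODE M21 annotation, with all 13 of its annotated transcripts, out of 55536 genes and 141862 transcripts in the tables. Of the 13 transcripts, 7 span or hold the variable exons A, B and C and were grouped by which of them they contain. The measurements come from polyA-selected RNA-seq of mouse regulatory T cells (Tregs, CD4 T cells that restrain immune responses) that had been through inflammation. All 3 libraries belong to 1 group: primary cells from 1 donor aged 12 weeks and 1 biosample, numbered in the labels as technical replicates. The mouse strain, the inflammatory stimulus and the sort that gave the cells are not given in the sources used here, and the sex was not collected. There is no control group, so the comparisons below are between splice forms, between genes and between libraries. Every SD over libraries measures only the spread between libraries of 1 sample, and every p-value concerns those libraries alone. Chi-square p-values set their differences against counting noise, and posterior SDs are the authors' errors within 1 library.

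CD45 is the abundant receptor-type tyrosine phosphatase of blood cells. Its inner phosphatase domain sets the activity of the Src-family kinases Lck and Fyn in T cells, by removing the phosphate that holds them inactive. Exons A, B and C encode part of the outer stalk, which is heavily O-glycosylated. They are spliced in or out, so that B cells and naive T cells carry longer forms (named CD45RA, RB or RC after the exon seen by the antibody), and activated or memory T cells carry more of the short form that lacks all of them, CD45RO. Skipping of these exons depends on RNA-binding proteins, of which hnRNP LL and hnRNP L are the best known.

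The variable exons are shown here because every splice form below is defined by them. Counted along Ptprc-207, the annotated transcript with all 33 exons, exon A is exon 4 (chr1:138122456-138122584, 129 bases), exon B is exon 5 (chr1:138120020-138120166, 147 bases) and exon C is exon 6 (chr1:138117754-138117894, 141 bases). Exon 7 (chr1:138116954-138117025, 72 bases) is also absent from 1 complete coding transcript. All 4 are coding over their whole length, on the minus strand of mm10, and each length is a multiple of 3 (43, 49, 47 and 24 codons), so that leaving any of them out keeps the reading frame. The sequences are written 5′ to 3′ on the coding strand, from the GENCODE M21 transcripts. Capitals mark matches to ACACA, a short CA repeat of the kind that hnRNP L proteins bind.
Exon A: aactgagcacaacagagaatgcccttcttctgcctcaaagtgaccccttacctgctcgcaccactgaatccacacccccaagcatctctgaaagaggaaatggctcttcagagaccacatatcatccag
Exon B: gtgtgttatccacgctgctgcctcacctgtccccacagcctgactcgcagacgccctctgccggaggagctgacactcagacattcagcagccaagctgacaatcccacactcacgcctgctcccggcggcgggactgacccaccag
Exon C: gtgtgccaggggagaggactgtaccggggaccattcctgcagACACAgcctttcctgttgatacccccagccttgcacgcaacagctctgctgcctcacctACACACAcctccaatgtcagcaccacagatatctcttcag
Exon 7: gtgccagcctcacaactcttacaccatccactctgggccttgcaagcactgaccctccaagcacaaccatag

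Exon C held 3 matches to ACACA, of which 2 overlap each other, and exons A, B and 7 held none on the coding strand. On the other strand the motif occurred once, in exon B. The background was internal exons of protein-coding transcripts with the same length, the Ptprc exon included. Among the 1227 with the length of exon C, 14.0% held ACACA on the coding strand. The shares for the lengths of exons A, B and 7 were 13.9%, 15% and 7.49%. The exons were rich in C and A together. These 2 bases made up 64.3% of exon A, 59.9% of exon B, 58.2% of exon C and 66.7% of exon 7. The medians in the background exons of the same length were 51.2%, 51.7%, 51.1% and 52.8%. Exon A lay above 99.2% of its 1399 length-matched exons, exon B above 95.7% of 1262, exon C above 90.1% of 1227 and exon 7 above 97.7% of 1282. Exon B had the highest GC content, 63.9%, and exon A the lowest, 50.4%. A motif match describes these letters only and is not a binding site.

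The spliced forms are set apart mainly by their junctions, which are printed here because few other stretches are their own, with 24 bases on each side and the downstream exon in capitals. The joins of exon 3 to exon 7, exon 3 to exon 8, exon 3 to exon B, exon B to exon 7, exon A to exon C and exon B to exon C each occur in 1 of the 13 transcripts (Ptprc-203, Ptprc-204, Ptprc-213, Ptprc-213, Ptprc-212 and Ptprc-207). The join of exon 3 to exon A occurs in 3 transcripts.
Exon 3 to exon 7 (RO with exon 7): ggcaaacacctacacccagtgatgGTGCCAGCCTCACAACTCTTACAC
Exon 3 to exon 8 (RO without exon 7): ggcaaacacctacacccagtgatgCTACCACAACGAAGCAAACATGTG
Exon 3 to exon B (B form): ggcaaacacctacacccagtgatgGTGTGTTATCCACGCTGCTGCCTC
Exon B to exon 7 (B form): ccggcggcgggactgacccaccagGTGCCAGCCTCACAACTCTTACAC
Exon 3 to exon A (ABC and AC forms, unspliced AB): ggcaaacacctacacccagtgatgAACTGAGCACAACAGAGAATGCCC
Exon A to exon C (AC form): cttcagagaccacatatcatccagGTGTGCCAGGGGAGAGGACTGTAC
Exon B to exon C (ABC form): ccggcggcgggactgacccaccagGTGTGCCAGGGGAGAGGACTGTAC

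The annotation sets what could be measured. Of the 8 possible combinations of exons A, B and C, 2 have a complete coding transcript: none of the 3 exons (Ptprc-203 and Ptprc-204) and all 3 of them (Ptprc-207). Exon B alone (Ptprc-213, 702 bases) and A with C (Ptprc-212, 415 bases) are annotated only as fragments whose 3′ end is incomplete. The other 4 combinations, which are A, C, AB and BC, have no spliced coding transcript, so reads from such mRNAs could only be assigned to other forms. The 2 further transcripts over the region, Ptprc-206 and Ptprc-210, are unspliced there and are classed as retained introns. The annotation also grades the support for each transcript, from 1 (strongest) to 5 (weakest). Ptprc-203 and Ptprc-204 have level 1, and the spliced forms with any of A, B or C (Ptprc-207, Ptprc-212 and Ptprc-213) have level 5.

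**Figure D1:**
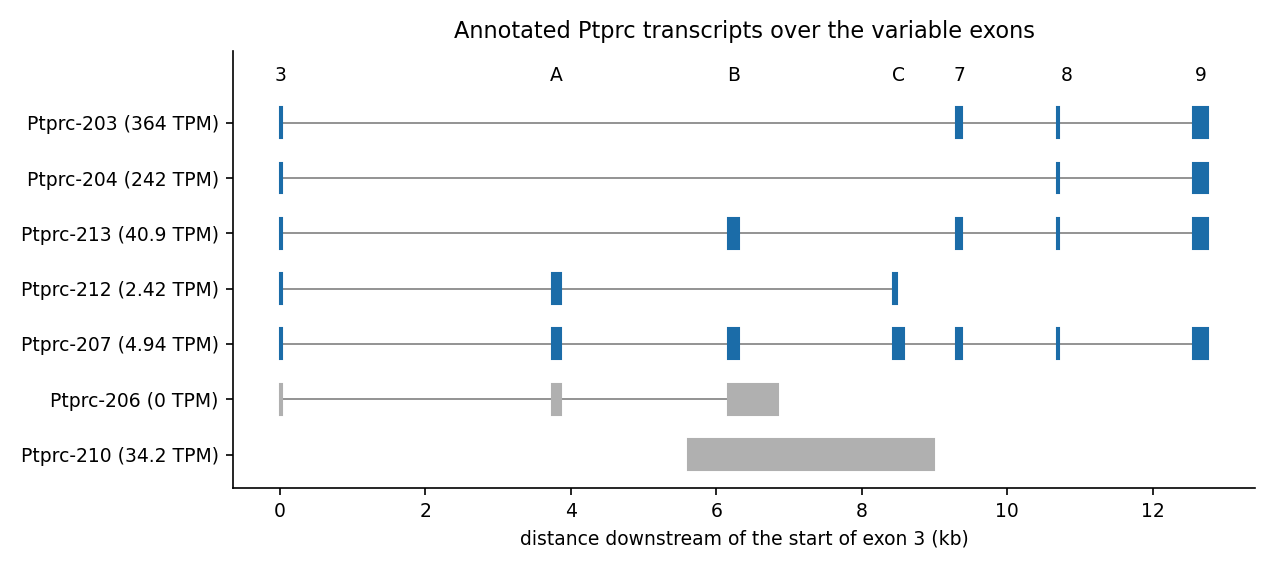
Exons of the 7 annotated Ptprc transcripts over the variable region, drawn by distance in kb downstream of the start of exon 3, with mean TPM over 3 libraries in the row names; blue boxes are exons of protein-coding transcripts, grey boxes those of retained-intron transcripts, and lines are introns. Ptprc-203 and Ptprc-204 pass over A, B and C, Ptprc-213 keeps B, and Ptprc-210 is 1 unspliced block over B and C.

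Ptprc was among the most abundant mRNAs of these Tregs. Its level in TPM (a transcript abundance corrected for length and scaled to a fixed sum) was 996 in library 1, 1032 in library 2 and 961 in library 3, a mean of 997 ± 35.6 (SD, n = 3). It ranked 113 of the 12883 genes that reached 1 TPM in all 3 libraries (called detected here), and 91 of the 10494 protein-coding ones. By expected read counts, which favour long mRNAs, it ranked 13. The authors' bounds on its posterior mean TPM were 921 to 940, 946 to 965 and 894 to 912. In each library the TPM lay above these bounds. The expected counts were 88424, 81286 and 94120, or 0.248%, 0.257% and 0.249% of the 35592007, 31611296 and 37728087 reads assigned to genes. In a second deposited count table, made on the older GENCODE M4 annotation, Ptprc held 7514, 7416 and 7497 reads, which were 0.0773%, 0.0829% and 0.0757% of that table's totals. The share of reads given to Ptprc thus differed between the authors' tables by more than it did between libraries, while its M4 rank per kilobase was 85 of 10596 genes.

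Among the protein-coding genes whose levels over the 3 libraries lay nearest to those of Ptprc were Gm2000 (mean 985 ± 33.9 TPM), Rps3, a protein of the small ribosomal subunit (978 ± 28.8 TPM), and Eif5a, a translation factor (983 ± 55.3 TPM), each n = 3. Likeness was the Euclidean distance of log2(TPM + 1) over 3 libraries, 0.0307, 0.0611 and 0.0703, and it reflects level only. Genes of the translation machinery have near-identical copies in the genome, so their levels are uncertain where reads were shared.

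The gene as a whole differed little between libraries. After scaling by trimmed mean of M-values (TMM), its counts were 85016, 89375 and 89602, so library 1 was lowest and libraries 2 and 3 were level. In the M4 counts the order differed, with library 2 highest and library 3 lowest, and the ratio was 1.094. The largest M21 value was 1.05 times the smallest, which exceeded Poisson counting noise (chi-square test, Benjamini-Hochberg adjusted p = 4.69e-33 over all genes). Of all 18253 genes tested, 77.0% passed the same test, so the call says little of Ptprc. Without library 1 the ratio was 1.006 and the call was lost (adjusted p = 0.321). On the TPM scale the lowest was library 3, in which 6 salivary gland transcripts summed to 56800 TPM, against 4.91 and 11 in libraries 1 and 2. The CV of the Ptprc TPM was 3.58%, against a median of 6.26% over the 593 genes with a mean of at least 10000 counts.

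The CD45RO form, without A, B or C, was the main mRNA over the variable exons. Both RO transcripts together held 87.6%, 87.8% and 88.8% of the TPM of the 7 transcripts over the region, a mean of 88.05% ± 0.65 (SD, n = 3). Over the 5 protein-coding transcripts alone the RO share was 92.63% ± 0.472, and the 3 spliced forms with any of A, B or C held 7.366% ± 0.472. The RO share was highest in library 3, and RO mRNA stood at 14.6, 14.1 and 16.0 times the B form. Of the TPM of all 13 transcripts, the RO share was 60.83% ± 1.17, since intron-retaining transcripts held much of the rest.

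RO mRNA came in 2 annotated versions that differ in exon 7. Ptprc-203 keeps exon 7 (4702 bases, 30 exons, 1154 codons) and was at 356, 384 and 352 TPM, a mean of 364 ± 17.3 (SD, n = 3). Ptprc-204 skips it (4611 bases, 29 exons, 1130 codons) and was at 239, 256 and 231 TPM, a mean of 242 ± 12.8. The version with exon 7 was higher in 3 of 3 libraries, and the ranges did not overlap. Its ratio to the version without was 1.49, 1.5 and 1.52, so the estimated balance at exon 7 moved less between libraries than either level did. The mean difference was 0.59 ± 0.02 on the log2(TPM + 1) scale, with p = 0.25 (2-sided exact sign-flip permutation test), the smallest p that 3 libraries allow. Within a library, the posterior SD was 2.01% to 2.86% of the count for Ptprc-203 and 2.95% to 4.43% for Ptprc-204. The small spread of the ratio therefore does not show a steady balance.

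The B form followed at a far lower level. Ptprc-213, which joins exon 3 to exon B and exon B to exon 7, was at 40.7, 45.5 and 36.5 TPM, a mean of 40.9 ± 4.55 (SD, n = 3). This is 5.925% ± 0.354 of the TPM over the region, and 0.8987% of the expected counts there, since the fragment is short. The authors' bounds on its posterior mean TPM were 30.8 to 44.9, 34.8 to 49.6 and 28.1 to 40.7, and they overlapped between all libraries. Because Ptprc-213 is a 5′ fragment, its TPM rests on its first 702 bases, and reads from the rest of a CD45RB mRNA would fall on sequence that it shares with the complete forms or does not cover. RO without exon 7 exceeded it by 2.54 log2 units in 3 of 3 libraries, with no overlap (exact sign-flip permutation p = 0.25).

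The full-length ABC form, typical of B cells, was close to the limit of what could be resolved. Ptprc-207 (5074 bases, 33 exons, 1293 codons) was at 6.84, 1.95 and 6.02 TPM, a mean of 4.94 ± 2.62 (SD, n = 3) and 0.7299% ± 0.403 of the TPM over the region. Library 2 was lowest, but the authors' bounds, 2.96 to 8.64, 0.377 to 4.10 and 2.88 to 7.54, overlapped between all libraries. If reads fell evenly along the transcript, about 12.8, 3.22 and 12.3 of them would lie on stretches found in no other Ptprc transcript. The posterior SD was 24.3%, 54.4% and 22.2% of its estimated count. Markers of B cells were low but present in these libraries: 6 of the 10 B-cell markers were detected, and the 10 summed to 78.2, 84.3 and 77.7 TPM. Cd79a and Cd79b, which form the signalling part of the B-cell receptor, were at means of 16.7 and 30.4 TPM, and the transcription factor gene Pax5 was at 0.02, 0.67 and 0.58 TPM. The part of such cells in the ABC reads was not tested, and fewer cells of a type cannot be told apart from less RNA per cell in bulk samples.

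The AC form was also at a low level. Ptprc-212 was at 2.99, 3.57 and 0.70 TPM, a mean of 2.42 ± 1.52 (SD, n = 3), and its bounds overlapped between all libraries. It rests on estimated counts of 24.1, 25.4 and 6.18 reads. Its range overlapped that of the ABC form, and the difference between them, 0.80 ± 1.35 log2 units, was positive in 2 of 3 libraries (exact sign-flip permutation p = 0.5). ABC and AC could therefore not be put in order.

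**Figure D2:**
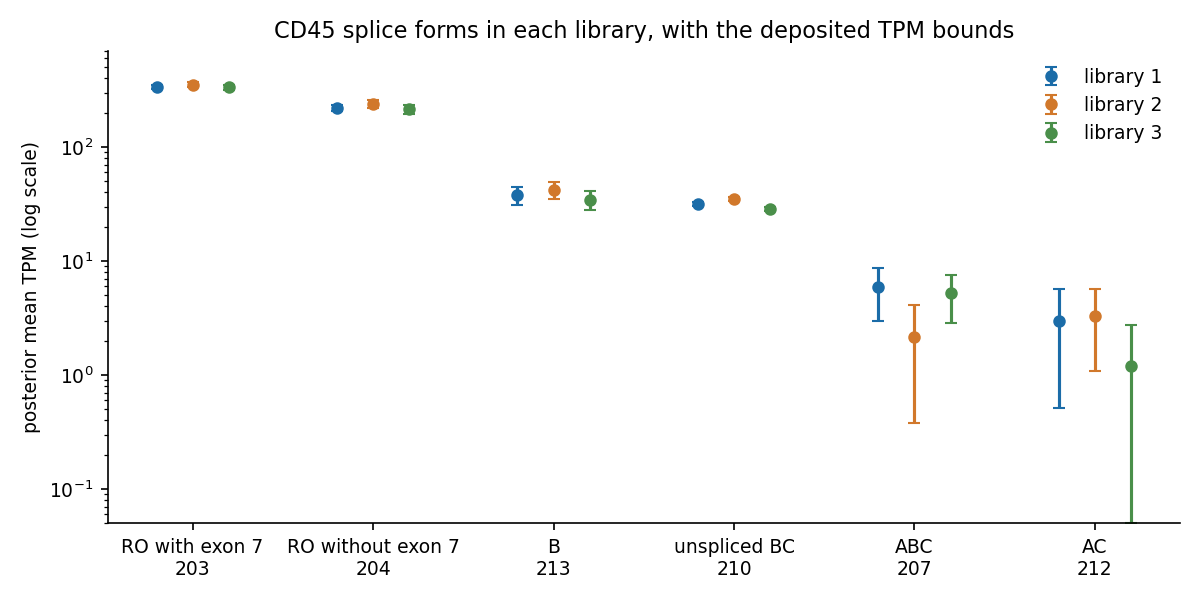
Posterior mean TPM (log scale) of the 6 transcripts over the variable exons with a TPM above 0 (Ptprc-206, at 0 TPM and a posterior mean of 0.07 to 0.08, is not drawn), for each of 3 libraries; bars span the authors' deposited lower and upper bounds, whose level is not stated in the files, and 1 bar of the AC form runs below the axis. The RO forms lie far above the B form, and the bounds of ABC and AC overlap in libraries 1 and 2 but not in library 3.

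Seen exon by exon, exon 7 was mostly kept and exons A, B and C were mostly skipped. Inclusion is the TPM of transcripts holding an exon as a percentage of all transcripts that hold or skip it. Exon A was included at 1.52%, 0.798% and 1.07%, a mean of 1.131% ± 0.366 (SD, n = 3). Exon B was included at 12.0%, 11.7% and 11.1%, a mean of 11.6% ± 0.452, and at 7.002% ± 0.317 over protein-coding transcripts only. Exon C was included at 6.42%, 5.99% and 5.66%, a mean of 6.024% ± 0.38, and at 1.131% ± 0.366 over protein-coding transcripts only. Most of the apparent inclusion of exon C was thus in the unspliced Ptprc-210, and in spliced transcripts exon C always came with exon A, because the annotation has no spliced transcript with C and without A. Exon 7 was included at 62.9%, 62.7% and 63.1%, a mean of 62.88% ± 0.154, and in 60.1% ± 0.252 of RO TPM. These SDs leave out the posterior errors given above for both RO versions.

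**Figure D3:**
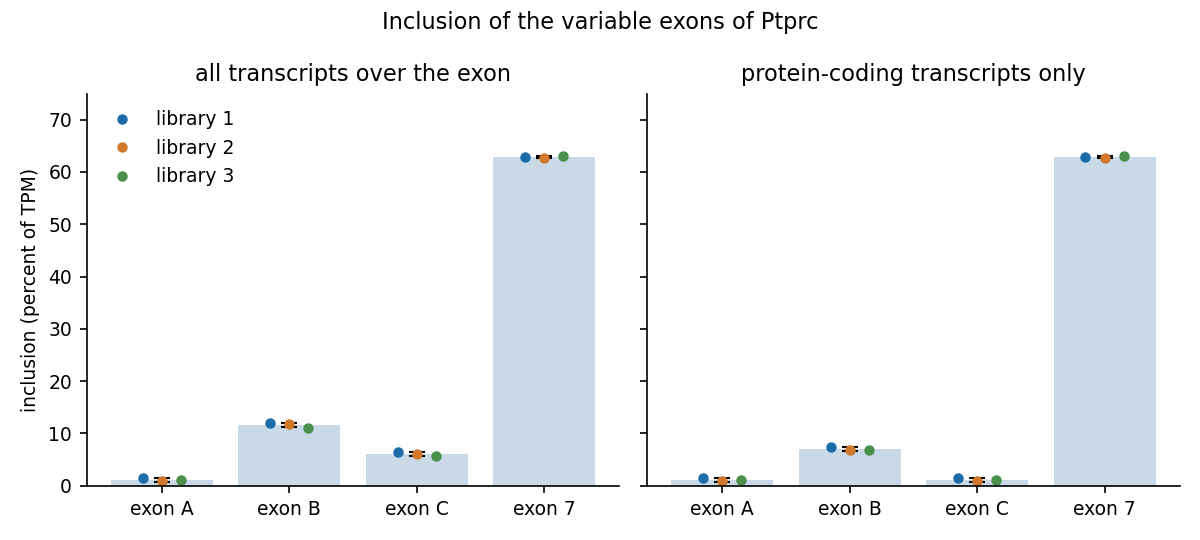
Inclusion of exons A, B, C and 7 as a percentage of TPM over all transcripts that cover the exon (left) and over protein-coding transcripts only (right); points are libraries, bars are means and error bars SD (n = 3). Exon 7 lies near 62.9% in both panels, exon B falls from 11.6% to 7.00% and exon C from 6.02% to 1.13% when unspliced transcripts are left out.

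The 8 transcripts classed as retained introns, called intron-retaining here, made up 35.2%, 33.0% and 34.8% of the Ptprc TPM, a mean of 34.33% ± 1.16 (SD, n = 3). Most of them start or end inside an intron and hold only part of it. By expected counts the share was 29.31% ± 0.807. The largest was Ptprc-208, a single block over exon 2 with parts of introns 1 and 2, at 156, 160 and 165 TPM. It was followed by Ptprc-202, which keeps sequence of intron 3, at 81.0, 57.8 and 63.5 TPM, and by Ptprc-201, which starts in intron 7 and runs past the 3′ end of the complete coding transcripts, at 58.8, 63.1 and 58.9 TPM. Ptprc-201 ends at chr1:138062861, and those transcripts end at 138063407 to 138063420, so not all of its own sequence is intron. The part of its TPM that rests on this longer 3′ end was not tested. Ptprc-208 was thus the highest in 3 of 3 libraries, while the ranges of Ptprc-202 and Ptprc-201 overlapped.

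Over the variable exons themselves, the unspliced Ptprc-210 covers exons B and C with intron 5 and parts of introns 4 and 6. It was at 33.8, 38.2 and 30.5 TPM, a mean of 34.2 ± 3.84 (SD, n = 3). Its ratio to the spliced B form was 0.830, 0.838 and 0.837. The B form was higher in 3 of 3 libraries by 0.25 ± 0.01 log2 units, but their ranges overlapped, and by expected counts the order was reversed. Ptprc-211, over intron 9 and parts of introns 8 and 10, was lower, at 12.9, 12.1 and 8.93 TPM. Ptprc-205, with its own first exon and a stretch of intron 3, was at 8.24, 9.12 and 7.15 TPM. Ptprc-206, unspliced from exon B into intron 5, and Ptprc-209, which keeps part of intron 2, were listed at 0 TPM in all libraries. Neither has any 50-base stretch of its own, so an estimate of 0 does not show that they were absent.

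**Figure D4:**
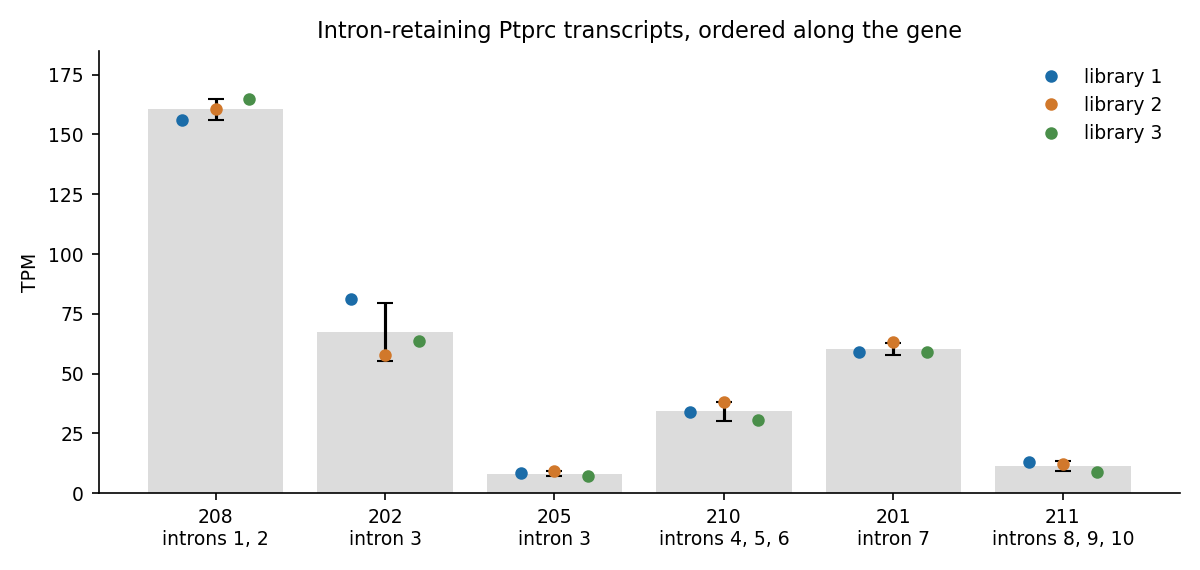
TPM of the 6 intron-retaining Ptprc transcripts with an estimate above 0, ordered from the 5′ to the 3′ end of the gene and named by number and by the introns they overlap; points are libraries, bars are means and error bars SD (n = 3). Ptprc-208 near the 5′ end is highest, and Ptprc-202 has the widest range in TPM, with library 1 at 81.0.

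The use of Ptprc transcripts also differed between libraries. The largest shift was in Ptprc-202, which made up 8.13%, 5.60% and 6.61% of the gene, a range of 2.53 percentage points, and its bounds did not overlap between any libraries. TPM bounds failed to overlap in at least 1 pair of libraries for Ptprc-208, Ptprc-210 and Ptprc-211 also. Those of every spliced coding form overlapped in all pairs. Bounds follow level and how well reads are told apart, so their overlap does not show a steady share. The posterior SD was 2.01% to 2.86% of the count for Ptprc-203, against 0.258% to 0.362% for Ptprc-210. By share of the gene, Ptprc-203 held 35.75%, 37.21% and 36.67%, and Ptprc-210 held 3.39%, 3.70% and 3.18%. Over the 11 transcripts with a mean count of at least 5, the chi-square test gave an adjusted p of 1.69e-151, where 92.8% of 10826 genes passed. This test holds counting noise only and not the uncertainty of sharing reads among transcripts. Among the 545 genes tested with at least 10000 counts, 96.0% passed, the median largest shift was 3.49 points, and 33.9% of them shifted less than Ptprc.

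Little of the transcripts is unique to 1 form. Of the 50-base windows in Ptprc-203, 51 (1.1%) were found in no other Ptprc transcript, against 48 (1.05%) for Ptprc-204, 85 (1.69%) for Ptprc-207 and 88 (13.5%) for Ptprc-213. The unspliced transcripts were better marked, with 2589 (77.6%) for Ptprc-210 and 2336 (89.6%) for Ptprc-202. Between both RO versions, 139 windows were found only in the one with exon 7 and 48 only in the one without. Of all 18564 distinct windows, 14 also occurred in other genes.

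All 8 Treg markers were detected, with the lineage factor Foxp3 at 98.1, 98.4 and 96.5 TPM (97.6 ± 1.04, SD, n = 3). There were no cells without inflammation to set them against, so these markers do not test that part of the label. Markers of CD8 T cells summed to 19.4, 26.5 and 16.9 TPM, of NK cells to 2.99, 2.88 and 3.33 TPM and of myeloid and dendritic cells to 9.63, 4.84 and 5.48 TPM, with the monocyte gene Cd14 at 0 and Zbtb46, a transcription factor gene of classical dendritic cells, at 7.09, 3.75 and 1.79 TPM. Library 2 had the highest sum over 6 markers of resting T cells (1630, 2250 and 1680 TPM). It also had the lowest over 6 of activated Tregs (1390, 881 and 1120 TPM). Library 2 was lowest for the ABC form, whose bounds overlapped between all libraries. The B form (45.55 TPM) and the AC form (3.57 TPM) were highest there, and their bounds also overlapped between all libraries. Both RO forms (384 and 256 TPM) and the whole gene (1032 TPM) were highest in library 2 as well. The part of resting or activated cells in these levels was not tested.

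Regulators of CD45 splicing were all present. All 24 genes of the list were detected, at a median of 180 TPM (37.4 to 1480), and 21 of 24 differed between libraries beyond counting noise, against 77.0% of all genes, with the largest ratio 1.28. Hnrnpll, whose protein promotes skipping of the variable exons in activated T cells, was at 97.7, 84.0 and 92.3 TPM, a mean of 91.4 ± 6.93 (SD, n = 3). Hnrnpl, its widely expressed relative, was 2.26 times higher, at 210.5, 214.4 and 194.9 TPM. Of the polypyrimidine tract-binding proteins, Ptbp1 was at 223 ± 21.9 TPM and Ptbp3 at 118 ± 7.67 TPM. Sfpq (PSF), a repressor of the exons in activated T cells, was at 90.3 ± 5.29 TPM. Thrap3 (TRAP150), which binds PSF, was at 153 ± 6.92 TPM, and the kinase genes Gsk3a and Gsk3b, whose product phosphorylates PSF in resting cells, were at 70.2 ± 1.81 and 47.9 ± 6.98 TPM. The highest others were Hnrnpk (1480 TPM), Hnrnpa2b1 (1160 TPM), Mbnl1 (652 TPM) and Srsf7 (385 TPM, level with Srsf3 at 385 TPM), and the lowest Sfswap (37.4 TPM) and Tra2a (41.8 TPM). No value here shows which of them acts on Ptprc.

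Genes for substrates and partners of CD45 were also all detected, 18 of 18, at a median of 344 TPM, and 16 of 18 differed between libraries, where 77.0% of all genes did. Ptprcap, the CD45-associated protein, was at 1321, 1311 and 1271 TPM. Lck, the main CD45 substrate of T cells, was at 1217, 1307 and 1223 TPM, and Fyn at 460 ± 10.8 TPM. Csk, the kinase that counteracts CD45 on Lck, was at 149 ± 6.33 TPM, so Lck mRNA was 8.39 times as abundant. Cd2, an adhesion receptor, was at 1170 ± 56.1 TPM and Lat, the adaptor of T-cell receptor signalling, at 628 ± 28.1 TPM. The lowest were Cd22, a B-cell lectin (11.03, 7.85 and 13.8 TPM), and Lgals3, which encodes galectin-3, a lectin that binds CD45 glycans (13.6, 3.45 and 12.5 TPM). Lgals3 was the only member of the list with a ratio of 2 or more between libraries, 3.83 after scaling, with library 2 low.

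Ptprc was by far the leading receptor-type tyrosine phosphatase. Of 21 genes of the family, 6 were detected, and Ptprc stood 7.53 times above the next, Ptpra, at 122, 136 and 140 TPM. Ptprv followed at 61.9 ± 3.18 TPM, Ptprs at 35.6 ± 0.441 TPM and Ptpre at 23.3 ± 2.44 TPM (SD, n = 3). The ranges over libraries of these 5 did not overlap between neighbours in this order. The 15 members not detected in every library had means of 0.02 to 1.16 TPM. Of the 16 members with enough counts to test, 13 differed between libraries, a share near the 77.0% of all genes.

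**Figure D5:**
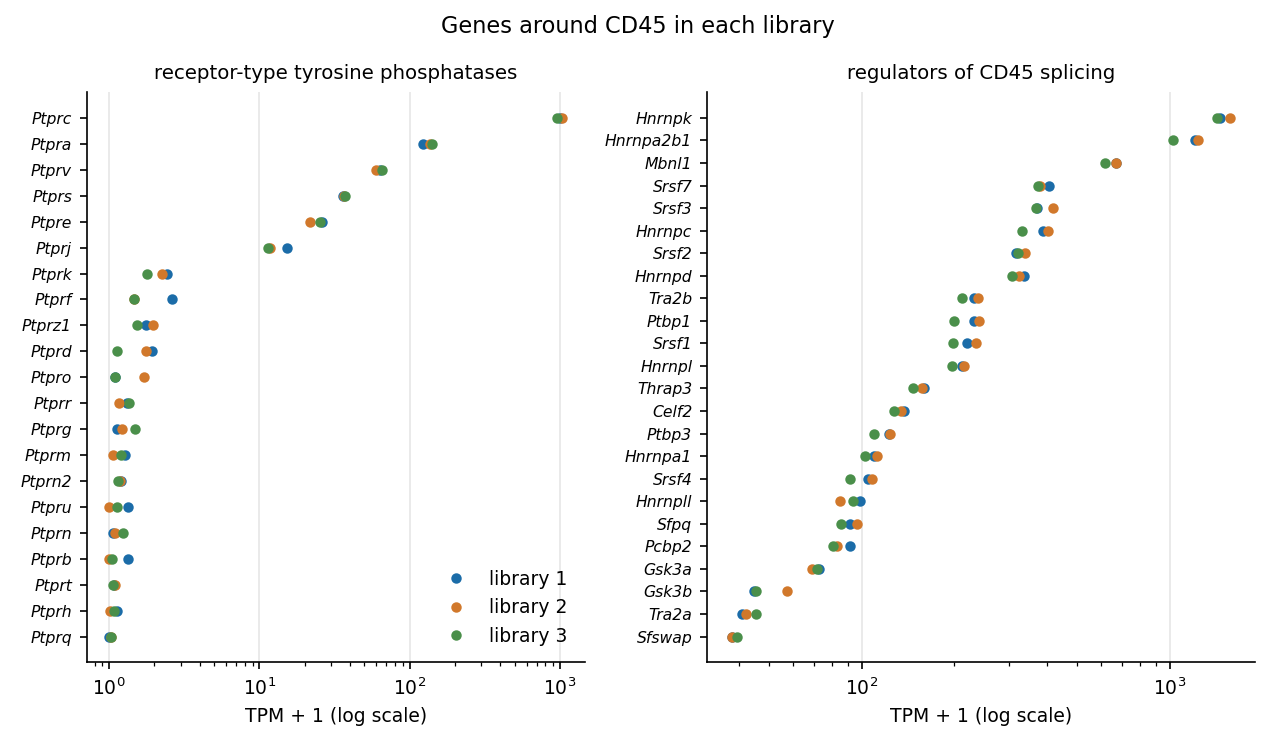
TPM + 1 (log scale) of the 21 receptor-type tyrosine phosphatase genes (left) and of 24 regulators of CD45 splicing (right), ordered by mean, with 1 point per library. Ptprc lies 7.53 times above Ptpra, and all 24 regulators lie at or above 37.4 TPM on average.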

How the data were processed

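PolyA-selected RNA was sequenced in 3 libraries of mouse Tregs, which the labels number as technical replicates of biological replicate 1. The authors deposited gene and transcript tables on mm10 and GENCODE M21 that hold expected counts, TPM, FPKM, a posterior mean TPM between 2 bounds and, per transcript, IsoPct, the percent of the gene's TPM, per the file headers. They also deposited whole-number counts per gene on GENCODE M4. The other deposited values used, posterior SDs of counts and TPM bounds, come from the authors as well, per the file headers. The aligner, the quantification program and the level of the bounds are not given in the sources used here. Effective lengths in the tables lie 49 bases below transcript lengths, as for reads of 50 bases, so windows of 50 bases were used to ask which stretches a transcript shares.

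Exon membership, junctions and sequences were read from the GENCODE M21 annotation and transcripts. Splice groups were summed in TPM. Expected counts were rounded and scaled by edgeR TMM factors. Rows that are not genes (0.17%, 0.17% and 0.218% of expected counts) were left out of totals and tests. The 18253 genes averaging 10 counts or more were tested between libraries with a chi-square test against Poisson noise, and the 10826 genes with at least 2 transcripts with a chi-square test of transcript shares, in which transcripts under a mean count of 5 were pooled, each Benjamini-Hochberg adjusted over all genes at 0.05. Splice forms were ordered on log2(TPM + 1), a scale that understates differences of low values, with a 2-sided exact sign-flip permutation test. Totals were 31611296 to 37728087 expected counts a library, and errors from counts cover counting only. Both chi-square tests, but not the sign-flip test, were checked on simulated counts that held Poisson noise only. Alternatives were DESeq2 size factors, library totals, no count filter, the M4 counts, posterior mean TPM, expected counts, other sets of transcripts, other pseudocounts and leaving out each library.

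The members and lists were chosen with earlier results of these data known. Named genes are all Ptprc transcripts, set regulators (hnRNP L and PTB families, Sfpq, Thrap3, Gsk3 genes) with the 4 highest and 2 lowest others, the 4 highest and 2 lowest partners with Ptprcap, Lck, Fyn and Csk, the 5 highest phosphatases, the 3 genes nearest in level, and defining markers, of which 1 is not reported here. Software was R 4.3.3, edgeR 4.0.16, DESeq2 1.42.0, Python 3.11.15, numpy 2.4.6, pandas 2.3.3, scipy 1.17.1 and matplotlib 3.10.9.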

Additional observations from a re-analysis of the deposited data

How the results depend on the processing

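The Ptprc level was 929.6 as posterior mean TPM and 620.6 as FPKM, and its rank was 13 by expected counts, which carry no length correction. Its largest ratio between libraries was 1.094 with the M4 counts and ran from 1.006 to 1.056 when each library was left out, and the call was lost only without library 1, by this test. Over all genes, 14052 passed that test, against 6254 with the M4 counts and 9215 without library 2. The RO share was 94.39% by expected counts, 92.63% over protein-coding transcripts and 60.83% of the whole gene. Inclusion of exon B was 5.583% by expected counts and 7.002% over protein-coding transcripts, and that of exon C was 4.714% and 1.131%. Inclusion of exon 7 was 61.26% by expected counts. The B form lay below the unspliced Ptprc-210 by expected counts, at -2.09 log2 units, where the fragment of 702 bases is set against 3384 bases. No order of forms could pass the sign-flip test under any setting, so the direction alone is given.

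Precision is limited by the few reads on stretches particular to ABC and AC, by an annotation without complete transcripts for most combinations of A, B and C, and by bounds of unstated level. The libraries are labelled technical replicates, so no spread between animals was measured. No paired analysis was possible because all 3 libraries belong to 1 group.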
